A study of Mus musculus with 10 samples.

Results

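The 8 genes described here act in the choice of an olfactory receptor (OR), the step at which a neuron of the main olfactory epithelium (MOE) settles on the receptor it will express. They were taken by name: Kdm1a, Ehmt1, Ehmt2, Setdb1, Cbx5, Lbr, Atf5 and Eif2ak3. Each was read by 1 of the 21789 probe sets that the platform annotation gives a single gene symbol, so that 8 of the 35556 probe sets in the table are at issue. The samples were Affymetrix Mouse Gene 1.0 ST arrays of whole MOE from 5-week old mice, 4 of the genotype H2be-GF and 6 wild type (WT). H2be-GF mice belong to a transgenic line crossed to C57Bl/6 in which the Omp promoter drives FLAG-tagged H2BE, a variant of histone H2B, in mature olfactory neurons apart from a band of neurons near zone 2. By quantitative PCR the paper identified its founder line as expressing the transgene well above the endogenous gene of H2BE. Per the paper each array held MOE RNA pooled from several mice, more of them for H2be-GF than for WT. The series gives an equal mixture of males and females, without the sex of any array. P-values therefore measure the spread between pools, and in whole tissue fewer cells of a type and less RNA per cell cannot be told apart.

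In the cells that give rise to olfactory neurons, OR genes lie in compact heterochromatin whose histone H3 is methylated at lysine 9 (H3K9). Enzymes that write this mark and proteins that bind it keep the unchosen receptors silent, while loss of the lamin B receptor from the nuclear envelope lets OR heterochromatin gather in a few bodies inside the nucleus. The demethylase Kdm1a (Lsd1) is needed for the first receptor to be switched on. The receptor protein then evokes the unfolded protein response through the kinase Eif2ak3 (Perk), which favours translation of the transcription factor Atf5. Adcy3, the adenylyl cyclase of odor transduction, appears as the neuron matures and the response is relieved, and Kdm1a falls, so that the choice is fixed. The Omp promoter becomes active late in this sequence. The comparison of H2be-GF with WT asks whether forced H2BE in mature neurons goes with a different level of the mRNAs that carry out the earlier steps.

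No difference between H2be-GF and WT was detected for any of the 8 genes. All 8 were among the 23194 probe sets tested, those that carry a symbol and average above 5 on the log2 scale, and limma called 0 of them at an adjusted p of 0.05 (0.0862% of all probe sets tested). The count at an unadjusted p under 0.05 was likewise 0 of 8 (8.43% of all probe sets tested), and in 0 of 8 were the genotypes free of overlap (2.89% of all probe sets tested). The differences, H2be-GF minus WT, ran from -0.07 for Atf5 to 0.11 for Kdm1a on the log2 scale, 5 above 0 and 3 below. Their median size was 0.04, against 0.08 over all probe sets tested. The 95% intervals of the fit all spanned 0. Their outermost bounds were 0.861-fold, for Atf5, and 1.19-fold, for Setdb1. In percent, no interval taken singly reached beyond 13.9% lower or 18.8% higher in H2be-GF. These bounds are for whole MOE. A change confined to the neurons with the transgene, or to other cells that make up part of the tissue, would be diluted in them. The residual SD of the 8 genes, 0.05 to 0.14, was below the median of all probe sets tested (0.15) for each of them. Array medians lay between 7.74 and 7.91, and arrays correlated with r between 0.969 and 0.988.

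**Figure D1:**
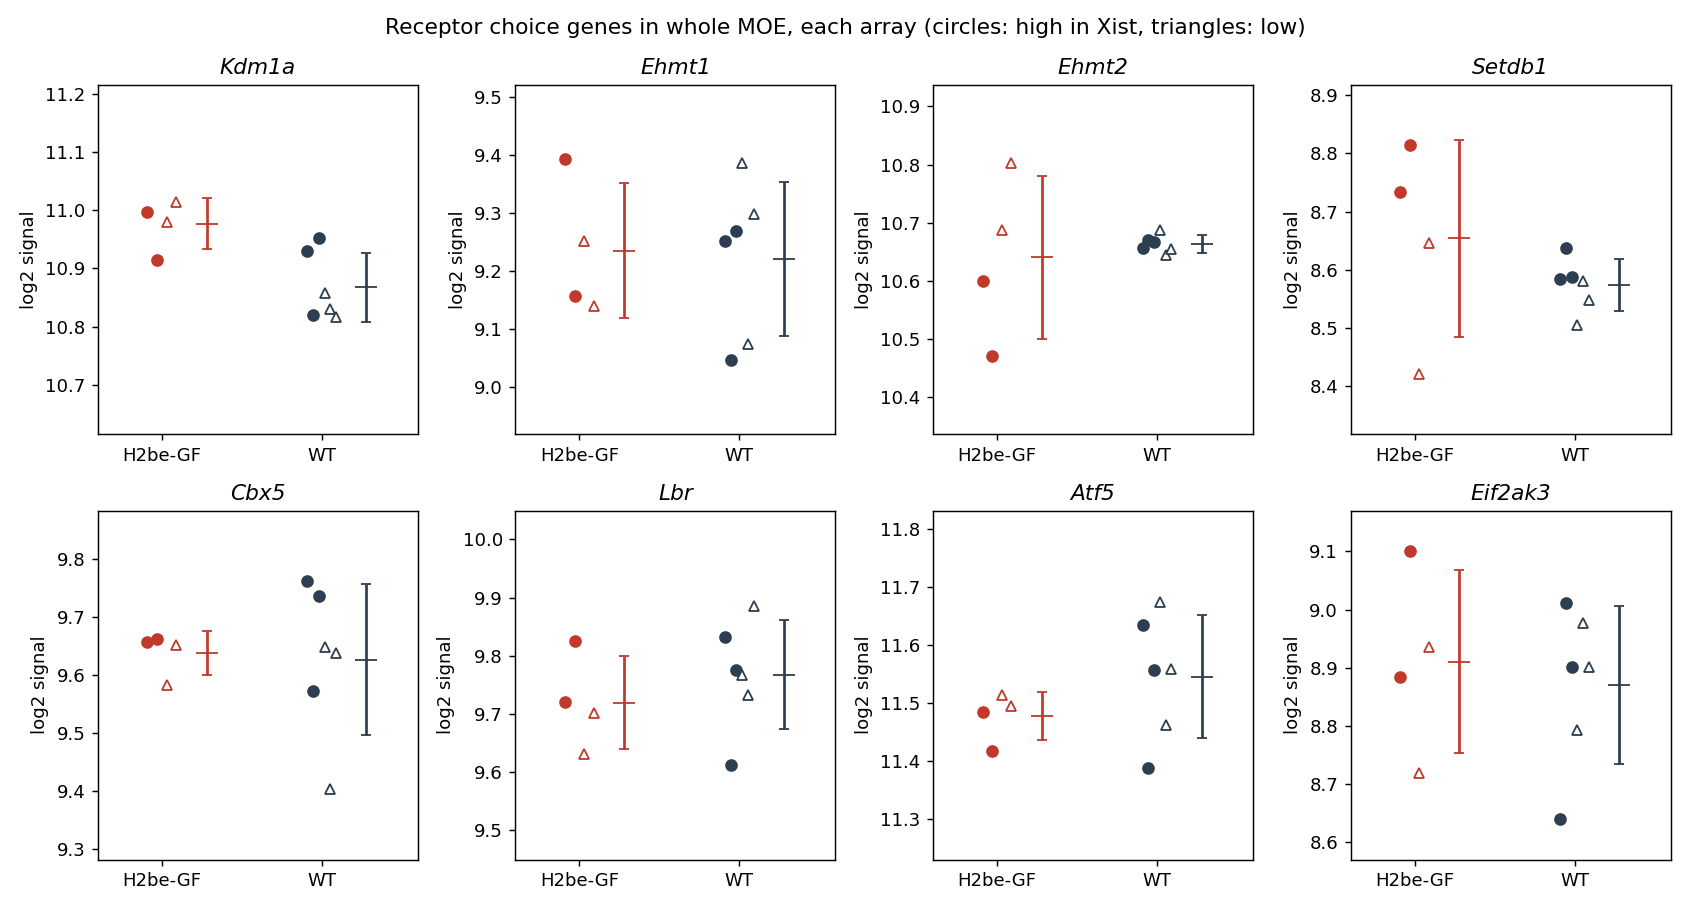
Log2 signal of the 8 genes on each H2be-GF (red, left) and WT (dark, right) array, with the mean and SD beside the points; filled circles are arrays high in Xist and open triangles the others. Every panel spans the same range on the log2 axis, and the genotypes overlap in each, with 3 of 4 H2be-GF arrays above all WT arrays for Kdm1a and for Setdb1.

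Kdm1a, which removes methyl groups from histone H3 and is the activator of the first OR, had the smallest p-value of the 8. Its log2 signal was 11.00, 10.91, 10.98 and 11.01 on the H2be-GF arrays 1 to 4, against 10.93, 10.82, 10.95, 10.86, 10.83 and 10.82 on the WT arrays 1 to 6. Of the H2be-GF arrays 3 lay above every WT array, while H2be-GF 2 lay below WT 1 and WT 3. The mean was 10.98 ± 0.04 in H2be-GF and 10.87 ± 0.06 in WT (SD, n = 4 and 6), a difference of 0.11 (SE 0.06, 95% interval -0.02 to 0.23, limma adjusted p = 0.649). Taken singly, its limma p was 0.0800, and a two-sided exact permutation test over the 210 assignments of the arrays gave p = 0.0238. This was the smallest of 8 such tests, unadjusted. The other genes gave exact p-values of 0.262 or above, and the smallest that 4 and 6 arrays can give is 0.00476. The residual SD of Kdm1a, 0.05, lay at percentile 1.44 of the probe sets tested, and limma draws so small a spread toward the common one.

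The promoter of Kdm1a is shown because it alone among the 11 promoters of the 8 genes in RefSeq (GRCm38.p6, 250 bases before to 50 after the start) held the letters TGATGNAA. They are the core of the composite element read by Atf4 with C/EBP partners in the stress response on which the receptor feedback draws. The stretch lies on the minus strand at chr4:136602862-136602961, with the match in capitals, 192 to 185 bases before the start:
Kdm1a promoter: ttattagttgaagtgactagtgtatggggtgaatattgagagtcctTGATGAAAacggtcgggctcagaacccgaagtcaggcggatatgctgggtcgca
On either strand TGATGNAA occurred in 3.97% of the 32851 promoters in the table. The homeodomain core TAATTA, in 5.29% of them, occurred in none of the 11. The 11 held between 8 and 42 CG pairs, where the median over all promoters was 7. A match is a description of letters and no evidence of binding.

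The H3K9 methyltransferases among the 8 were Ehmt1, Ehmt2 and Setdb1. Ehmt1 (GLP) and Ehmt2 (G9a) form a complex that writes mono- and dimethylation and acts in the silencing of ORs. Ehmt1 was at 9.39, 9.16, 9.25 and 9.14 in H2be-GF and at 9.25, 9.05, 9.27, 9.39, 9.07 and 9.30 in WT. The H2be-GF arrays lay within the WT range except H2be-GF 1, which exceeded WT 4 by less than 0.01. The difference was 0.01 (SE 0.08, 95% interval -0.17 to 0.20, limma adjusted p = 0.978).

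Ehmt2 was at 10.60, 10.47, 10.69 and 10.80 in H2be-GF, against 10.66, 10.67, 10.67, 10.69, 10.64 and 10.65 in WT. The WT arrays lay close together, while the H2be-GF arrays fell on both sides of them, 2 below all and 1 above all. The mean was 10.64 ± 0.14 in H2be-GF and 10.66 ± 0.02 in WT (SD, n = 4 and 6), so that the SD was 9.07 times as large in H2be-GF at a difference in means of -0.02 (SE 0.07, limma adjusted p = 0.954). The spread was not tested. The H2be-GF SD was close to the median residual SD of all probe sets tested (0.15), so that the ratio reflects how close the WT arrays were. For others of the 8 genes the SD was smaller in H2be-GF, at 0.29 times that of WT for Cbx5 and 0.39 times for Atf5.

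Setdb1, which writes trimethylation of H3K9 and is drawn to its targets by zinc-finger repressors and Trim28, also scattered more in H2be-GF than in WT. It was at 8.73, 8.81, 8.42 and 8.65 in H2be-GF and at 8.59, 8.64, 8.59, 8.50, 8.58 and 8.55 in WT. The H2be-GF arrays 1, 2 and 4 lay above every WT array, and H2be-GF 3 lay below all of them. The SD was 0.17 in H2be-GF and 0.04 in WT, and the difference 0.08 (SE 0.08, 95% interval -0.09 to 0.25, limma adjusted p = 0.815). Without H2be-GF 3 the difference was 0.16 (SE 0.07), with an unadjusted limma p of 0.0374 and an adjusted p of 0.638. Without H2be-GF 2 it was 0.03 (limma adjusted p = 0.955), and over each array left out in turn it lay between 0.03 and 0.16.

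Cbx5 codes for HP1 alpha, the protein that binds methylated H3K9 and compacts heterochromatin. Its signal was 9.66, 9.66, 9.58 and 9.65 in H2be-GF, against 9.76, 9.57, 9.74, 9.65, 9.40 and 9.64 in WT. Here it was the WT arrays that scattered, with WT 5 the lowest, and the H2be-GF arrays all lay within their range. The difference was 0.01 (SE 0.07, 95% interval -0.15 to 0.17, limma adjusted p = 0.979).

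Lbr, the lamin B receptor of the inner nuclear membrane, tethers heterochromatin to the nuclear envelope in most cells and is low in olfactory neurons. It was at 9.72, 9.82, 9.63 and 9.70 in H2be-GF and at 9.83, 9.61, 9.78, 9.77, 9.73 and 9.89 in WT. All H2be-GF arrays lay between the lowest and the highest WT array. The difference was -0.05 (SE 0.07, 95% interval -0.20 to 0.10, limma adjusted p = 0.893).

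The 2 genes of the feedback lay on opposite sides of 0, neither called. Eif2ak3, the kinase that senses unfolded protein in the endoplasmic reticulum, was at 8.88, 9.10, 8.72 and 8.94 in H2be-GF and at 8.64, 9.01, 8.90, 8.79, 8.98 and 8.90 in WT. Its range over all arrays, 0.46, was the widest of the 8 genes, and the difference was 0.04 (SE 0.09, 95% interval -0.16 to 0.24, limma adjusted p = 0.937). Atf5, whose translation this kinase promotes, was at 11.48, 11.42, 11.51 and 11.50 in H2be-GF, against 11.63, 11.39, 11.56, 11.67, 11.46 and 11.56 in WT. The H2be-GF arrays lay in the lower part of the WT range, all of them below WT 1, 3, 4 and 6 and above WT 2, and on both sides of WT 5. The difference was -0.07 (SE 0.07, 95% interval -0.22 to 0.08, limma adjusted p = 0.830). The feedback acts on Atf5 through translation, which mRNA levels do not record.

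**Figure D2:**
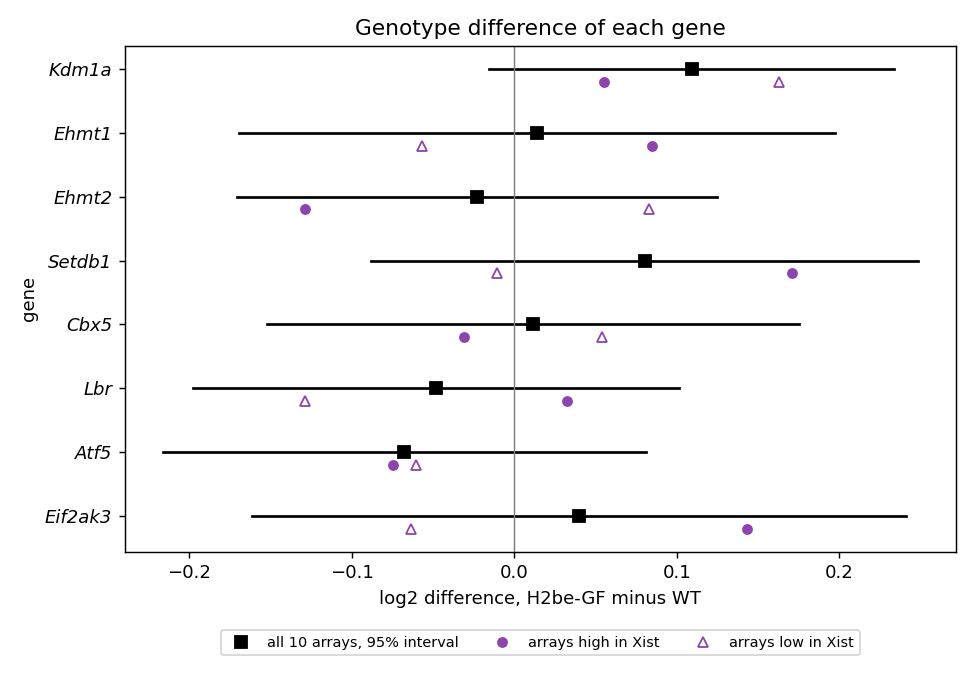
Log2 difference, H2be-GF minus WT, of each gene over all 10 arrays (squares, with the 95% interval of the fit), in the 5 arrays high in Xist (circles) and in the other 5 (triangles). All intervals span 0, from Kdm1a at 0.11 to Atf5 at -0.07, and the sets high and low in Xist lie on opposite sides of 0 for 6 of the 8 genes.

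Levels of Xist, the noncoding RNA of the inactive X, separated the arrays into 5 at 11.69 or above (H2be-GF 1 and 2, WT 1, 2 and 3) and 5 at 4.61 or below. Both sets hold H2be-GF and WT arrays, so the genotypes could be compared within each. Kdm1a was higher in H2be-GF by 0.06 (SE 0.11) in the arrays high in Xist and by 0.16 (SE 0.09) in the others, and Atf5 differed by -0.07 and -0.06. The other 6 genes had opposite signs. The widest gap was that of Ehmt2, at -0.13 (SE 0.11) in the arrays high in Xist and 0.08 (SE 0.10) in the others. Setdb1 was at 0.17 (SE 0.11) and -0.01 (SE 0.11), and Eif2ak3 at 0.14 (SE 0.15) and -0.06 (SE 0.12). No difference between the sets was called in limma (smallest unadjusted p = 0.122, for Ehmt2, and adjusted p = 1.00).

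Levels of some of the 8 genes varied together over arrays, without a pair that passed the correction over all 28. Atf5 and Eif2ak3 ran opposite to each other over the 10 arrays, with Pearson r = -0.764 (permutation p = 0.0105, adjusted p = 0.294) and Spearman rho = -0.782 (permutation p = 0.0103, adjusted p = 0.288). WT 1 and WT 4 were low in Eif2ak3 and high in Atf5, and WT 2 and H2be-GF 2 were high in Eif2ak3 and low in Atf5. Without the 2 arrays farthest from the median of Atf5 r was -0.644, and with the mean of each genotype and Xist set taken out it was -0.820. Ehmt1 went with Atf5 (r = 0.696, permutation p = 0.0253, adjusted p = 0.302, rho = 0.661, permutation p = 0.0437, adjusted p = 0.473, r = 0.515 without the 2 arrays farthest from the median of Ehmt1, and r = 0.865 with those means taken out). Setdb1 went with Eif2ak3 (r = 0.671, permutation p = 0.0324, adjusted p = 0.302, rho = 0.552, permutation p = 0.104, adjusted p = 0.494). Without the 2 arrays farthest from the median of Setdb1 r was 0.293, and with the mean of each genotype and Xist set taken out it was 0.722. Leaving out the arrays farthest from a median narrows the range, which by itself lowers r, so the fall does not show that a relation rests on them. Taking out those means also moved pairs with no small p-value. Cbx5 and Atf5 went from r = 0.478 to 0.843, Kdm1a and Atf5 from 0.035 to 0.736, and Ehmt2 and Setdb1 from -0.582 to 0.273. Values with the means taken out were not tested. Each pair shares its arrays and their normalization.

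**Figure D3:**
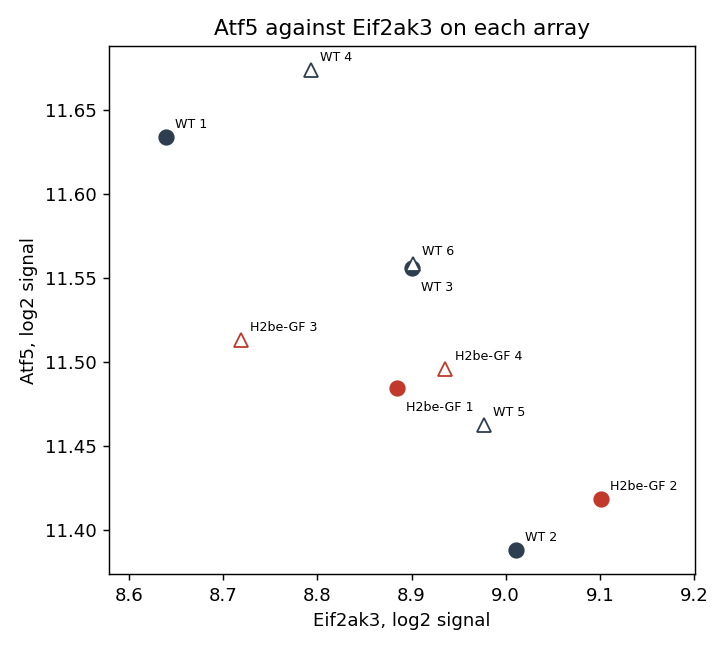
Log2 signal of Atf5 (vertical) against Eif2ak3 (horizontal) on each H2be-GF (red) and WT (dark) array; filled circles are arrays high in Xist and open triangles the others. The points run downward to the right (Pearson r = -0.764 over 10 arrays, adjusted p = 0.294), with both genotypes and both Xist sets along the slope.

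The genes whose pattern over the 10 arrays was most like that of each gene are given as a description, since any gene has close matches among 21586. Between 5 and 19 of these reached r above 0.9 with a given gene. For Kdm1a they were Srrm2, a splicing factor (r = 0.964), and Fam20a (r = 0.937). For Ehmt1 they were the prostaglandin transporter Slco2a1 (r = 0.986) and the axon guidance protein Sema5a (r = 0.979), and for Ehmt2 Zfp346 (r = 0.935) and Elp6 (r = 0.921). Setdb1 was matched by Vstm2a (r = 0.958) and Ndufaf2 (r = 0.931), Cbx5 by Smu1 (r = 0.942) and Neo1 (r = 0.940), and Lbr by D230025D16Rik (r = 0.933) and Nrbf2 (r = 0.928). Atf5 was matched by Arpc4, a subunit of the complex that branches actin (r = 0.965), and Paxx, a DNA repair factor (r = 0.963). Eif2ak3 was matched by Ppp3ca, a catalytic subunit of calcineurin (r = 0.975), and Ppt1 (r = 0.949). None of these 16 was called between genotypes in limma (adjusted p of 0.380 or above).

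The wider machinery around the 8 genes gave no call. None of 84 further genes in 7 lists passed the adjusted threshold in limma. At an unadjusted p under 0.05 there were 6 (7.14%, against 8.43% of all probe sets tested) and 4 without overlap between genotypes (4.76%, against 2.89%). These 4 were Morc2a, Kdm4c, Dnajb9 and Rtp1, of which Morc2a, a partner of the HUSH silencing complex at a difference of 0.11 (SE 0.07, limma adjusted p = 0.682), is named after its values were seen. The median difference was -0.00011 over these genes and 0.01 over all probe sets tested.

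Among 11 H3K9 methylation enzymes and partners 10 were above 0 and 1 below, with a median of 0.07, 2 at an unadjusted p under 0.05 and 0 called. The smallest p-values were those of Tasor, which scaffolds the HUSH silencing complex, at 0.19 (SE 0.07, limma adjusted p = 0.505), and Setdb2, a relative of Setdb1, at 0.18 (SE 0.08, limma adjusted p = 0.582). Tasor was at 10.40, 10.52, 10.30 and 10.21 in H2be-GF and between 10.08 and 10.26 in WT. Setdb2 was at 10.06 on H2be-GF 2, against 9.68 to 9.76 on the other H2be-GF arrays. H3K9 demethylases lay evenly, 5 above and 5 below 0 with a median of 0.01. Of these Kdm4c did not overlap between genotypes, at 9.56 to 9.65 in H2be-GF and 9.37 to 9.53 in WT, a difference of 0.15 (SE 0.06, limma adjusted p = 0.499). Kdm3a was at 0.13 (SE 0.07, limma adjusted p = 0.672).

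Of 10 HP1 paralogs and other heterochromatin factors 7 were below 0, with a median of -0.04. Lrwd1, which binds repressive histone marks and the origin recognition complex, was at -0.17 (SE 0.06, limma adjusted p = 0.426), the smallest adjusted p of all 7 lists, with 8.90 to 9.08 in H2be-GF and 9.06 to 9.20 in WT. Uhrf1, which couples H3K9 methylation to DNA methylation in dividing cells, was at -0.12 (SE 0.09, limma adjusted p = 0.747). Of 11 genes in the list of the Kdm1a paralog and complex partners 7 were above 0, with a median of 0.02. Hdac2, the deacetylase that works with Kdm1a in the CoREST complex, was at 0.12 (SE 0.06, limma adjusted p = 0.657), and Zmym2 at 0.09 (SE 0.08, limma adjusted p = 0.806).

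The nuclear lamina and inner nuclear membrane, the setting of Lbr, had 8 of 14 genes above 0 and a median of 0.03. Lmna, the gene of lamins A and C, was at 8.86, 8.62, 8.60 and 8.58 in H2be-GF, against 8.86, 8.88, 8.97, 8.81, 8.83 and 8.79 in WT. The H2be-GF arrays lay below all WT arrays except H2be-GF 1, for a difference of -0.19 (SE 0.07, limma adjusted p = 0.482). Tor1aip1, a lamina-binding membrane protein, was at 0.20 (SE 0.09, limma adjusted p = 0.600).

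Genes of the unfolded protein and integrated stress response, through which Eif2ak3 and Atf5 act, had 9 of 25 above 0, 16 below and a median of -0.01. Dnajb9, a chaperone of the endoplasmic reticulum, was at 10.71, 10.93, 10.74 and 10.83 in H2be-GF and at 10.48, 10.69, 10.60, 10.71, 10.68 and 10.60 in WT. The genotypes met without overlap at H2be-GF 1 and WT 4, and the difference was 0.18 (SE 0.07, limma adjusted p = 0.508). Eif2ak1, another kinase of the same translation factor as Eif2ak3, was at 0.13 (SE 0.07, limma adjusted p = 0.636). The 3 genes at the output of the feedback were all below 0. Adcy3 was at -0.10 (SE 0.06, limma adjusted p = 0.698), with 12.33, 12.12, 12.35 and 12.26 in H2be-GF against 12.29 to 12.40 in WT. Rtp1, which carries ORs to the cell surface, was at -0.11 (SE 0.06, limma adjusted p = 0.648), with 11.71 to 11.82 in H2be-GF against 11.83 to 11.96 in WT.

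**Figure D4:**
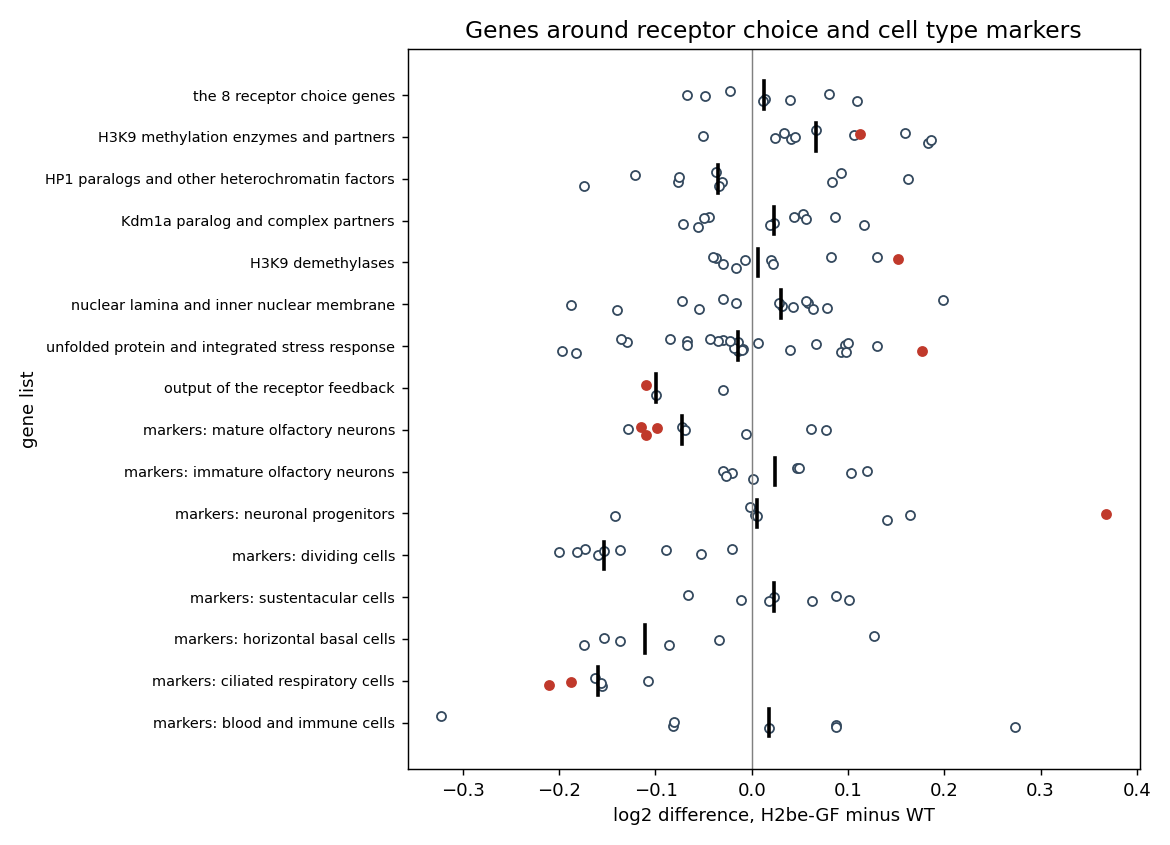
Log2 difference, H2be-GF minus WT, of the 8 genes (top), of genes in 7 lists around receptor choice and of markers of 8 cell types; each point is a gene, red where the genotypes do not overlap, and the black bar is the list median. The 8 genes lie between -0.07 and 0.11, and the markers of dividing cells (9 of 9) and of ciliated respiratory cells (6 of 6) all lie below 0.

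Markers of some cell types lay mostly on 1 side of 0 beside these results, and their part in them was not tested. Of 59 markers in 8 lists 12 were at an unadjusted p under 0.05 (20.3%, against 8.43% of all probe sets tested) and 6 did not overlap between genotypes (10.2%, against 2.89%). All 6 markers of ciliated respiratory cells lay below 0, between -0.21 and -0.11, with 5 at an unadjusted p under 0.05 and 0 called, with a mean level of 9.50 to 9.64 in H2be-GF and 9.70 to 9.80 in WT. All 9 markers of dividing cells lay below 0, with a median of -0.15, 0 of them at an unadjusted p under 0.05, and a mean level of 8.38 to 8.58 in H2be-GF and 8.44 to 8.71 in WT. By labelling of newly made DNA, the paper reports more newly formed neurons in H2be-GF than in a control transgenic line, and also more apoptosis of mature neurons. Labelled neurons were counted in tissue sections days after the label was given. Such a count is a different measure from the mRNA of cells dividing at sampling. Those mice were older than the ones used here. Of 9 markers of mature olfactory neurons, Rtp1 among them, 7 lay below 0, with a median of -0.07, 1 at an unadjusted p under 0.05 (Cnga4), 3 whose highest H2be-GF array was still under the lowest WT array (Omp, Cnga2 and Rtp1; Cnga2 and Cnga4 are named after their values were seen) and a mean level of 11.74 to 11.78 in H2be-GF and 11.77 to 11.87 in WT. Immature neuron markers had a median of 0.02, those of sustentacular cells 0.02 and of horizontal basal cells -0.11, each list with 0 at an unadjusted p under 0.05. Of 7 neuronal progenitor markers, with a median of 0.01, 3 were higher and 1 lower in H2be-GF at an unadjusted p under 0.05. Of 7 blood and immune cell markers, with a median of 0.02, 1 was higher and 1 lower at that level. No marker tested was at or near 0 on any array. Of the 59 markers 1 was called (0.0862% of all probe sets tested), Lhx2 in the progenitor list, named after its values were seen. It was higher in H2be-GF by 0.37 (SE 0.06, limma adjusted p = 0.0425). Its WT mean was 11.09, against 8.01 for Neurog1 and 8.86 for Neurod1 of the same list. Neurod1, Tex15 and Sox11 there differed by -0.002, 0.003 and 0.005 (all named after their values were seen). Whether the call has to do with progenitors was not tested. Omp itself was at 12.78 ± 0.03 in H2be-GF and 12.88 ± 0.04 in WT (SD, n = 4 and 6, limma adjusted p = 0.659). Hist2h2be, the endogenous gene of H2BE, was at 11.84 ± 0.07 in H2be-GF and 12.07 ± 0.05 in WT (limma adjusted p = 0.297). The transgene was built from the Omp genomic region with its coding sequence replaced. By quantitative PCR the paper reports the transgene in this line at a level well above that of the endogenous gene. The Hist2h2be signal shows no such rise and is no measure of the transgene. Whether the probes of Omp or of Hist2h2be read any part of it could not be checked from their sequences. Both genes were without overlap, lower on every H2be-GF array (no overlap in 2.89% of all probe sets tested). The exact permutation p of each was 0.00476, the smallest that 4 and 6 arrays can give. It restates that separation and is no further support.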

How the data were processed

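MOE RNA was measured on Affymetrix Mouse Gene arrays (1.0 ST), 4 H2be-GF and 6 WT. The deposited values are log2 signals per probe set, between 0 and 14.2, which the authors summarised by IterPLIER with sketch-quantile normalization (Expression Console). They looked for outlying arrays with arrayQualityMetrics. Versions and genome build are not given in the sources used here. Quantile normalization hides a shift shared by most genes.

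The platform annotation gave each probe set its gene, with symbols updated by Entrez ID to RefSeq names of GRCm38.p6 (21698 of 21789 matched). H2be-GF and WT were compared by limma 3.58.1 under R 4.3.3 (lmFit, eBayes, two-sided, no covariate) over 23194 probe sets that had a symbol and averaged above 5, with Benjamini-Hochberg adjustment over all of them and a threshold of 0.05. Intervals of 95% are those of the fit. Correlations used 100000 resamples. The scripts were tested on simulated data. The number of arrays limits the precision.

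The 8 genes and the lists were chosen with earlier results of these data known. The text names the 8 genes, from each pathway list those called or else the 2 with the smallest p, the 2 genes most like each of the 8, and Hist2h2be and Omp. List genes were counted by their probe set of the highest mean, and 8 of them without one of their own symbol were not analysed here. Promoters came from RefSeq (GRCm38.p6). As alternatives a second quantile normalization, median centring, a constant of 16, a trended robust variance, array weights, a replicate block, an Xist term, other filters, each array left out and each Xist set alone were run.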

Additional observations from a re-analysis of the deposited data

Results flagged for a closer look

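Single arrays stood apart in 5 of 48 groups of arrays looked at (24 named genes in each genotype), where about 1 in 20 is flagged by chance. Cbx5 was at 9.58 on H2be-GF 3, 0.07 below the nearest of the other H2be-GF arrays. Uhrf1 was at 8.21 on H2be-GF 3, 0.16 above the next H2be-GF array. Kdm3a was at 9.97 on H2be-GF 2, 0.22 above the next, and Lmna was at 8.86 on H2be-GF 1, 0.24 above the next. Zmym2 was at 9.72 on WT 2, 0.20 above the next WT array. Apart from these flags, H2be-GF 2 was the highest of all arrays for Tasor, Setdb2, Hdac2, Zmym2, Kdm3a, Tor1aip1, Dnajb9, Eif2ak1, Setdb1 and Eif2ak3. The same array was the lowest of all for Lrwd1, Rtp1, Adcy3, Ehmt2 and Omp. The named differences of these genes thus share 1 array, and those of list genes without it are not given here.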

How the results depend on the processing

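The count of the 8 genes called was 0 under all alternatives run across probe sets. At an unadjusted p under 0.05 it was 0 to 1 when 1 array was left out, the 1 being Setdb1 without H2be-GF 3. Of 184 values of the 8 genes under alternatives, 164 kept their direction and stayed uncalled. The trended robust variance, the Xist term, the other filters and the permutation test leave each difference as it was. Their direction could therefore not change, and they are no check of it. The exact permutation test of Kdm1a passed 0.05 (p = 0.0238, difference 0.11). The other 19 changed sign, for 6 genes and never past the threshold; Kdm1a and Atf5 kept theirs. The cause was not tested. With centring on the array median Ehmt1 was at -0.0048 and Cbx5 at -0.0072. A second quantile normalization put Cbx5 at -0.0035 and array weights at -0.0084. With the replicate number as a block Ehmt1 was at -0.0035 and Cbx5 at -0.0416, and no other of the 8 changed sign. In arrays low in Xist Ehmt1 was at -0.057, Ehmt2 at 0.0829, Setdb1 at -0.0105 and Eif2ak3 at -0.0632. In arrays high in Xist Cbx5 was at -0.031 and Lbr at 0.0322. Leaving out 1 array gave -0.0384 to 0.0468 for Ehmt1, -0.0767 to 0.0335 for Ehmt2, 0.0265 to 0.1579 for Setdb1, -0.0332 to 0.0386 for Cbx5 and -0.0238 to 0.1036 for Eif2ak3. The count over all probe sets, 20, was 114 with a trended robust variance, 36 with a filter at a mean of 7, 13 with 1 symbol only, 5 with the replicate block, 0 within either Xist set (limma, with 1113 at an unadjusted p under 0.05 where Xist was high and 1012 where it was low) and 11 to 19 with 1 array left out, the lowest without H2be-GF 1 (11) and H2be-GF 3 (13). Same-numbered arrays deviated together in 3 of 4 pairs (r of 0.219 to 0.530) and oppositely in the fourth (r = -0.423). Of the 4 H2be-GF arrays 1 matched its own number best. A pairing by number was thus not shown, and 4 pairs are too few to exclude it. Counting every probe set of a gene left the calls at 0 in the 7 pathway lists and at 1 in the marker lists.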
